A study of Bos taurus with 8 samples.

Results

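The genes described here were 40 genes of glycolysis and of the cellular response to low oxygen, taken by name from the 21861 genes listed in the deposited tables. They comprised 2 glucose transporters, 18 glycolytic enzymes, 2 enzymes that regulate glycolysis, 2 lactate transporters, 2 pyruvate dehydrogenase kinases, 3 subunits of hypoxia-inducible factor (HIF), 3 genes of HIF degradation and 8 genes known as targets of HIF. Each name matched 1 Ensembl identifier, and the genes were followed over the time with lipopolysaccharide (LPS) and within classes of cells. Whole blood of 4 lactating female Holstein cattle, 2 years old, was pooled and split into 4 parts. A part received no LPS and the others received LPS, the outer membrane component of Gram-negative bacteria, at 2 µg/ml and 37 °C for 2 h, 4 h or 8 h before peripheral blood mononuclear cells were isolated. Each part gave 1 single-cell RNA library (scRNA-seq) and 1 single-cell chromatin accessibility library (scATAC-seq).

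Glycolysis converts glucose to pyruvate through a series of cytosolic enzymes, and lactate dehydrogenase converts pyruvate to lactate. Under low oxygen the HIF alpha subunits escape hydroxylation by EGLN enzymes and degradation through VHL, pair with ARNT and raise the transcription of glucose transporters, most glycolytic enzymes, PDK1, VEGFA, ADM and NDRG1. In monocytes and macrophages of other mammals, LPS is known to raise HIF1A and glycolysis, so the question here was how these genes behaved over 8 h of LPS in bovine blood cells.

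No statistical test was possible, because each treatment had 1 library per assay, and an effect of LPS cannot be told apart from an effect of the library. No incubation time was given for the part without LPS, so LPS and time in incubation cannot be told apart either. Levels are given as CPM, the unique molecular identifiers (UMIs) of a gene scaled to a total of 1000000 over the UMIs summed over the cells considered, and intervals in brackets are 95% intervals that cover counting error only. A UMI counts a molecule once at its 3' end, so no length correction was needed. Differences are log2((CPM + 1)/(CPM + 1)) against the library without LPS, and a gene is called higher or lower past the fold when this reached 1.5-fold with at least 50 UMIs over both libraries. Such a call describes these libraries and is no test.

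The cells kept numbered 7821 without LPS, 9865, 7387 and 3411 at 2, 4 and 8 h, with 38503367, 47875879, 40160248 and 16657841 UMIs. Between 8 and 24 cell barcodes were shared by any pair of libraries. Cells were put in classes by 5 genes. The CD14 class, which takes in monocytes, held 707, 308, 117 and 66 cells in the same order, or 9.04%, 3.12%, 1.58% and 1.93% of the cells. The CD3E class of T cells held 3629, 4996, 3888 and 1641 cells, the MS4A1 class of B cells 1759, 2420, 1914 and 728, and the NCR1 class of natural killer cells 63, 99, 90 and 38. A CSF3R class, the receptor gene of granulocytes, held 31, 66, 55 and 15 shallow cells. The 8 monocyte markers summed to between 3426 and 5910 CPM in the CD14 class and to at most 35.2 CPM in the CD3E class. The 8 T cell markers summed to between 425 and 847 CPM in the CD14 class, nearly all of it IL7R (411 to 827 CPM). In the CD14 class the granulocyte gene CXCR1 was at 3.86, 15.97, 73.1 and 6.29 CPM. The chemokine gene CXCL5 was already at 83176 CPM in the CD14 class without LPS, against 91732 CPM at 8 h, and IL1B was at 9071 CPM without LPS and 21706 CPM at 2 h.

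Over all cells, 38 of the 40 genes had enough UMIs, all except the muscle phosphofructokinase PFKM and the neuronal enolase ENO2. At 2 h, 2 of the 38 were higher and 6 were lower past the fold, against 3.42% higher and 6.69% lower of the 11103 genes tested. At 4 h, 1 was higher and 10 were lower, against 5.12% and 9.58% of 11028 genes. At 8 h, none was higher and 9 were lower, against 4.95% and 6.95% of 10713 genes. The median of the 38 genes was -0.20, -0.21 and -0.05 at 2, 4 and 8 h, and that of all genes tested was -0.03, 0.03 and 0.11. Lower calls thus outnumbered higher ones at every time. The counts at 8 h were the least stable: without an upper limit on genes per cell 2 of the genes were lower, and with every cell weighted equally 1 was.

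The library composition differed along with these levels. Without LPS the CD14 class gave 17.5% of all UMIs, and it gave 7.46%, 2.83% and 3.82% at 2, 4 and 8 h. Its share of the cells was also lower with LPS, while its median UMIs per cell were 9882 without LPS and 12608, 10015 and 9665 with LPS. Without LPS the CD14 class gave above 50% of the UMIs of 8 of the genes, namely SLC2A3, HK2, HK3, PFKFB4, HIF1A, VEGFA, ADM and NDRG1. At 4 h it gave above 50% for none of them. These 8 included 2 of the 6 genes lower past the fold at 2 h, 6 of the 10 at 4 h and 6 of the 9 at 8 h.

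When the UMI share of each class was held at its value without LPS, the number of lower genes was 3, 5 and 1 at 2, 4 and 8 h, against 5.5%, 6.81% and 3.23% of all genes. The number of higher genes was 2, 4 and 3, against 3.32%, 4.58% and 4.06% of all genes. HIF1A, over all cells at 219, 167, 131 and 161 CPM, then stood at 219, 241, 268 and 309.8 CPM, and its log2 ratio at 4 h went from -0.74 to 0.29. NDRG1 went from -0.79 to 0.88 at 4 h, and SLC2A3 from -0.95 to 0.16. ADM, at 0.64, -0.15 and 0.48 over all cells, came to 1.498, 1.35 and 1.67. Of the genes lower past the fold over all cells, 4 were also lower at 4 h at fixed shares: HK3 (-0.94), ALDOC (-0.78), GAPDH (-0.78) and SLC16A3 (-0.78).

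**Figure D1:**
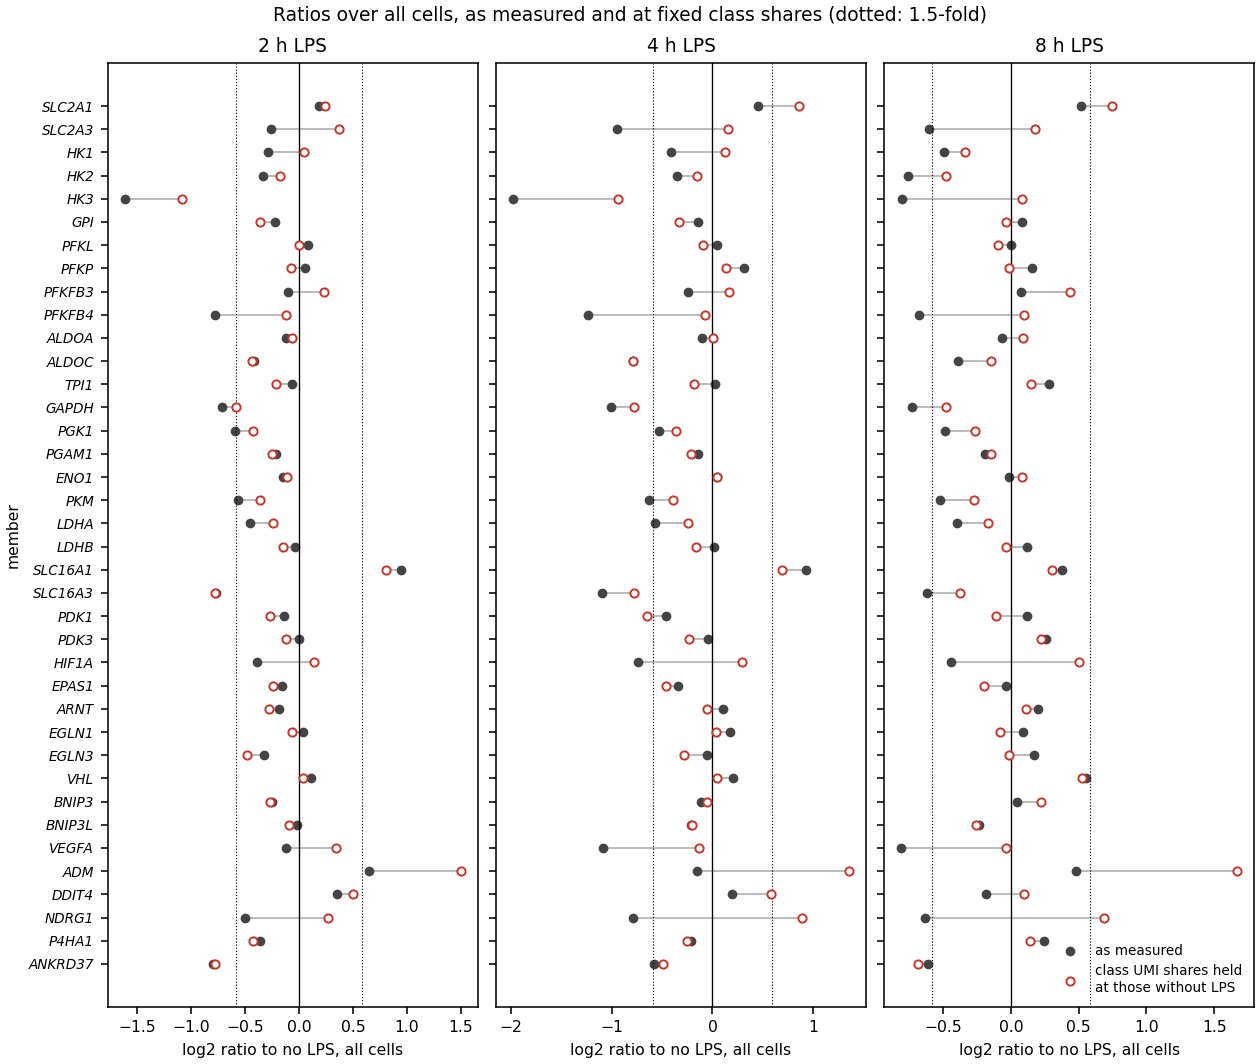
Log2 ratio to the library without LPS of the 38 genes with enough UMIs, over all cells, at 2 h, 4 h and 8 h. Filled points are the measured ratios and open points those with the UMI share of each class held at its value without LPS; dotted lines mark 1.5-fold. At 4 h the NDRG1 pair (-0.79 and 0.88) and the ADM pair (-0.15 and 1.35) lie furthest apart, while HK3, GAPDH and SLC16A3 lie left of the 1.5-fold line both ways.

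Of the 38 genes with at least 50 UMIs without LPS, 22 had their highest level in the CD14 class among the CD14, CD3E and MS4A1 classes. The CD3E class was highest for 7 (PFKL, PFKP, PDK1, PDK3, EPAS1, EGLN1 and P4HA1) and the MS4A1 class for 9 (GPI, TPI1, LDHB, SLC16A1, ARNT, EGLN3, VHL, BNIP3L and ANKRD37). The 18 glycolytic enzymes summed to 5209 CPM in the CD14 class without LPS, against 2347 CPM in the CD3E class and 2757 CPM in the MS4A1 class. With LPS the sum in the CD14 class was 3531, 3342 and 4009 CPM at 2, 4 and 8 h. In the CD3E class it was 2148, 2236 and 2203 CPM, and in the MS4A1 class 2547, 2515 and 2787 CPM. The CD14 class thus had the highest sum of these 3 classes in every library, with a smaller margin under LPS.

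Within the CD14 class, the scale of comparison matters and is given first. At 2 h, 46.3% of the 6110 genes tested in this class were lower past the fold and 7.38% were higher, and the median of all genes was -0.54. Its 20 highest genes took 36.9% of its UMIs without LPS and 44.1%, 39.8% and 38.5% at 2, 4 and 8 h. At 4 h, 25.7% of 5800 genes were lower and 11.4% higher, with a median of -0.20, and at 8 h 16.4% and 11.6% of 5698 genes, with a median of -0.07. TMM factors take out much of such a common shift. Values scaled by them are given in counts and beside each printed call of the 40 genes in this class that they end. On this scale the median of all genes was -0.08, -0.10 and -0.16.

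On the CPM scale, 2 of 28 genes were higher and 10 lower in the CD14 class at 2 h, 5 of 27 higher and 11 lower at 4 h, and 4 of 27 higher and 4 lower at 8 h. On the TMM scale the counts were 8 higher and 3 lower at 2 h, 7 higher and 10 lower at 4 h, and 3 higher and 6 lower at 8 h. On that scale 15.5%, 14% and 9.04% of all genes were higher and 19%, 21.5% and 20.7% lower at 2, 4 and 8 h. At 4 h, 9 glycolytic enzymes and SLC16A3 were lower, and SLC2A1, BNIP3L, ADM, DDIT4 and NDRG1 were higher, on both scales. Of these, HK3 (-0.55), GPI (-0.53) and BNIP3L (0.55) fell short of the fold without an upper limit on genes per cell. DDIT4 (0.43) fell short of it with at least 2000 UMIs per cell. BNIP3L (0.50) and DDIT4 (-0.51) lost their call without the cells holding a UMI of CSF3R or CXCR1, a setting chosen after the data were seen, and such cells were 38.5% of the CD14 class at 4 h. The median of the enzymes in the CD14 class was -0.64, -0.80 and -0.33 at 2, 4 and 8 h, and on the TMM scale -0.16, -0.70 and -0.43. At 2 h the median of the enzymes was close to the -0.54 of all genes.

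**Figure D2:**
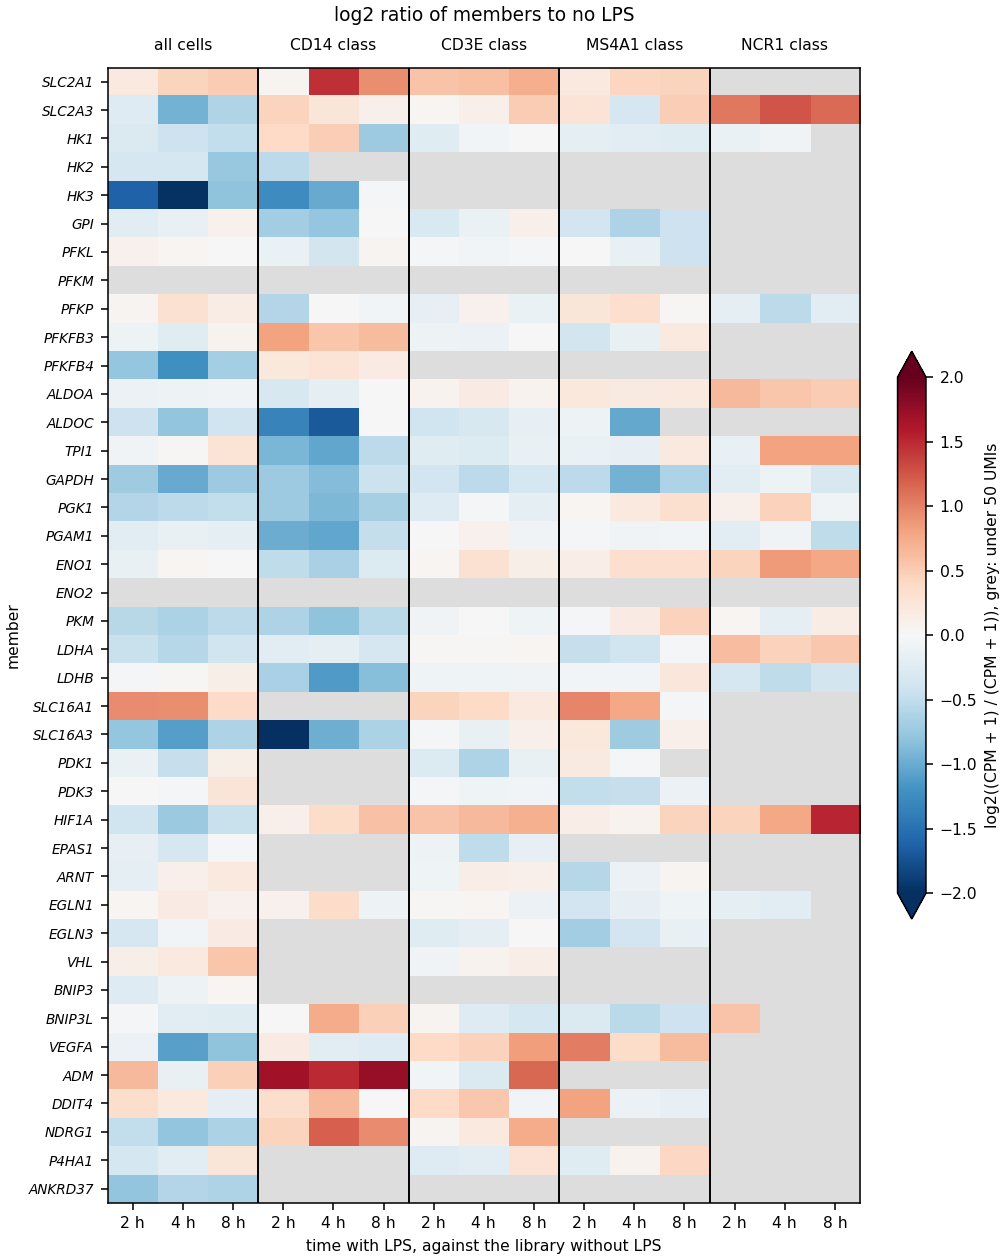
Log2 ratio of each of the 40 genes to the library without LPS (colour, red higher and blue lower) over all cells and in the CD14, CD3E, MS4A1 and NCR1 classes at 2 h, 4 h and 8 h. Grey marks under 50 UMIs over both libraries; in the CD14 columns the glycolytic enzymes are mostly blue at 2 h and 4 h, while SLC2A1, PFKFB3, HIF1A, ADM and NDRG1 are red at 4 h and 8 h.

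Glucose enters blood cells through GLUT1, encoded by SLC2A1, and GLUT3, encoded by SLC2A3. SLC2A3 in the CD14 class was at 678, 921, 804 and 729 CPM (no LPS, 2 h, 4 h and 8 h), so it stayed within 1.5-fold of the library without LPS on the CPM scale, while the TMM value at 2 h was 0.92. The lower levels of SLC2A3 over all cells, 187, 156, 96.6 and 123 CPM, were thus not found within the class that gave 63.4% of its UMIs without LPS. SLC2A1 in the CD14 class was at 23.5, 24.4, 66.1 [52.0 to 82.8] and 45.6 [30.5 to 65.5] CPM, higher past the fold at 4 h (1.46) and 8 h (0.93). In the CD3E class SLC2A1 was at 8.10, 12.6, 12.8 and 14.1 CPM, past the fold at 4 h (0.60) and 8 h (0.73). SLC2A3 made up most of the UMIs of both transporters in the CD14 class, where SLC2A1 had 3.34% without LPS and 7.59% at 4 h. In the MS4A1 class SLC2A1 had 35.1% and 48.5%.

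Hexokinases trap glucose in the cell as glucose 6-phosphate. HK1 gave 66.9% [63.9 to 69.8] of the hexokinase UMIs in the CD14 class without LPS, and 86.0%, 85.1% and 56.7% [44.0 to 68.8] with LPS. HK3, the form of myeloid cells, gave 29.1% without LPS, 11.5%, 12.8% and 40.3% at 2, 4 and 8 h. As a level, HK3 in the CD14 class was at 43.4, 17.7, 21.1 and 42.4 CPM, lower past the fold at 2 h (-1.25, TMM -0.79) and 4 h (-1.002, TMM -0.91) and near its level without LPS at 8 h. Without an upper limit on genes per cell the 4 h value was -0.55, short of the fold. HK1 was at 99.8, 132, 141 and 59.7 CPM, lower past the fold at 8 h (-0.73) on 38 UMIs, a call that was lost without an upper limit on genes per cell (-0.18). HK2, the form known to respond to HIF in other mammals, had only 41, 14, 4 and 2 UMIs in this class. In the MS4A1 class HK2 had 5 UMIs of 193 hexokinase UMIs without LPS (2.59%) and 29 of 282 at 2 h (10.3%), too few in the pair for a call.

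The middle of the pathway differed by enzyme. GPI, which isomerises glucose 6-phosphate, was highest in the MS4A1 class, at 97.1, 74.7, 63.1 and 73.0 CPM. It was lower past the fold there at 4 h (-0.61), but not on the TMM scale (-0.47). In the CD14 class it had between 12 and 127 UMIs. The phosphofructokinase of these cells was PFKP with PFKL: PFKP gave most of the family's UMIs in the CD3E class, where PFKL had between 23.7% and 27.1% in the 4 libraries, and PFKM had no UMI in the CD14 class. PFKFB3, which makes the activator of phosphofructokinase, was at 89.4, 156, 131 and 140 CPM in the CD14 class, with log2 ratios of 0.80, 0.55 and 0.64, past the fold at 2 h and 8 h. On the TMM scale these were 1.28, 0.65 and 0.54, past the fold at 2 h and 4 h. PFKFB3 was thus higher than without LPS at every time. In the same class 2, 9 and 3 glycolytic enzymes were lower past the fold on both scales at 2, 4 and 8 h. PFKFB4, its relative, was at 6.08, 3.13, 2.02 and 3.42 CPM over all cells, lower past the fold at each time, but at 20.9, 24.4, 25.5 and 23.6 CPM in the CD14 class. The aldolase of these cells was ALDOA, with at least 98.6% of aldolase UMIs in the CD14 class, and it stayed within 1.5-fold there (551, 440, 487 and 547 CPM). ALDOC had 53, 9, 2 and 5 UMIs in the CD14 class.

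The enzymes from triose phosphate to pyruvate carried most of the UMIs. GAPDH, which makes the NADH of glycolysis, was at 902, 550, 448 and 543 CPM over all cells, lower past the fold at 2 h (-0.71), 4 h (-1.01) and 8 h (-0.73). It was lower in these 4 classes: at 4 h its level was 935 CPM against 1702 in the CD14 class, 452 against 651 in the CD3E class, 371 against 711 in the MS4A1 class and 678 against 730 in the NCR1 class. Only the CD14 (-0.86, TMM -0.76) and MS4A1 (-0.94) differences of these 4 passed the fold. GAPDH therefore stood apart from ENO1, which at 4 h was above its level without LPS in the CD3E class (459 against 372 CPM) and the MS4A1 class (672 against 532 CPM) and below it in the CD14 class (567 against 889 CPM).

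In the CD14 class the remaining enzymes of this stretch were low together at 4 h. PGK1, the first ATP-making enzyme, was at 287, 172, 153 [131 to 178] and 181 CPM, lower past the fold at all 3 times (-0.73, -0.90 and -0.66), though at 2 h not on the TMM scale (-0.25) and at 8 h not without an upper limit on genes per cell (-0.38). PGAM1, the phosphoglycerate mutase, was at 240, 120, 116 [97.3 to 138] and 173 CPM, and PKM, the pyruvate kinase, at 705, 457, 405 and 486 CPM. Both were past the fold at 2 h and 4 h on the CPM scale, and on the TMM scale PGAM1 (-0.52) and PKM (-0.14) were not at 2 h. TPI1 was at 48.1, 24.9, 22.9 and 33.0 CPM in the CD14 class, past the fold at 4 h on both scales (-1.04 and -0.94). At 2 h TPI1 was past the fold on the CPM scale (-0.92) but not on the TMM scale (-0.46). Nor was TPI1 past the fold at 2 h without an upper limit on genes per cell (-0.56). In the MS4A1 class it was at 197, 179, 175 and 225 CPM. In the MS4A1 class PGK1 was at 86.5, 88.8, 99.1 and 109 CPM and PKM at 114, 112, 128 and 157 CPM, both within 1.5-fold and both highest at 8 h. In the CD3E class none of the 14 enzymes with enough UMIs passed the fold at any time, GAPDH at 4 h (-0.52) being nearest.

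Lactate dehydrogenase is a tetramer of A and B subunits. In the CD14 class LDHA gave 77.7% [76.3 to 79.0] of its UMIs without LPS, and with LPS 82.4%, 87.0% [83.8 to 89.8] and 83.3%. LDHB was at 131, 83.2, 59.0 and 72.3 CPM there, lower past the fold at each time on the CPM scale (-0.65, -1.14 and -0.85). On the TMM scale it was lower past the fold at 4 h and 8 h, but not at 2 h (-0.17). Without an upper limit on genes per cell LDHB fell short of the fold at 2 h (-0.43) and 8 h (-0.48). LDHA, at 455, 389, 396 and 361 CPM, was not past the fold. The CD3E and MS4A1 classes had mostly LDHB, with LDHA at 39.4% to 41.2% and 31.0% to 37.5% of the UMIs. Of the lactate transporters, SLC16A3, which exports lactate, was at 32.1, 6.72 [4.31 to 10.0], 15.9 and 20.4 CPM in the CD14 class. Its log2 ratio of -2.10 at 2 h was the lowest among the 40 genes with enough UMIs in this class, and on the TMM scale it was -1.67. SLC16A1, which can carry lactate both ways, was at 5.77, 12.0, 11.9 and 7.80 CPM over all cells, higher past the fold at 2 h (0.94) and 4 h (0.93). It had at most 11 UMIs in the CD14 class, and its higher level was in the MS4A1 class, at 10.96, 22.5 [20.0 to 25.3], 19.3 and 10.8 CPM.

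**Figure D3:**
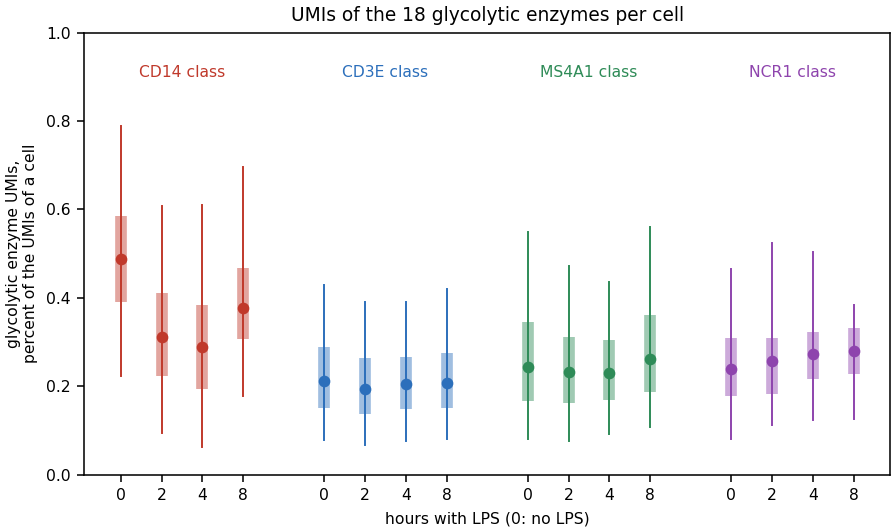
UMIs of the 18 glycolytic enzymes in percent of the UMIs of a cell, by class and hours with LPS (0 is the library without LPS). Points are medians over cells, boxes the middle 50% and lines the 5th to 95th percentile; the median of the CD14 class was 0.488% without LPS and 0.289% at 4 h, and that of the CD3E class 0.212% and 0.205%.

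Taken cell by cell, the enzymes made up a median of 0.488% of the UMIs of a CD14-class cell without LPS, 0.312%, 0.289% and 0.377% at 2, 4 and 8 h. The quartiles without LPS were 0.392% and 0.585%, and at 4 h 0.194% and 0.385%, so the lower quartile without LPS lay above the upper quartile at 4 h. The medians were 0.212%, 0.194%, 0.205% and 0.207% in the CD3E class and 0.244%, 0.232%, 0.231% and 0.262% in the MS4A1 class. Cells of a library are not replicates, and these quartiles describe the cells only.

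The pyruvate dehydrogenase kinases divert pyruvate from the mitochondria. PDK1 was a gene of the CD3E class, at 54.1, 44.7, 34.9 and 48.6 CPM, lower past the fold at 4 h (-0.62), whereas the CD14 class had 13 PDK1 UMIs without LPS and at most 4 in any LPS library. PDK1 is known as an HIF target. Of the CD14, CD3E and MS4A1 classes without LPS, the CD3E class had the highest PDK1, the lowest HIF1A (37.0 CPM) and the highest EPAS1 (6.85 CPM). Whether HIF acted on PDK1 here was not tested. PDK3 was at 17.3, 17.0, 16.2 and 16.6 CPM in the CD3E class and at 14.2, 9.77, 9.97 and 12.9 CPM in the MS4A1 class, within 1.5-fold at each time.

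HIF1A, the oxygen-regulated subunit, was foremost a gene of the CD14 class, which gave 61.9% of its UMIs without LPS. Its level in this class was 775, 830, 999 and 1158 CPM, and its log2 ratios were 0.10, 0.37 and 0.58, the last with an interval of 0.47 to 0.69 around the fold limit. On the TMM scale they were 0.58, 0.47 and 0.48. In the CD3E class HIF1A was at 37.0, 55.3, 58.2 and 61.2 CPM, higher past the fold at 4 h (0.64) and 8 h (0.71). In the MS4A1 class it was at 94.2, 103, 99.0 and 129 CPM and in the NCR1 class at 63.0, 86.5, 108 and 183 CPM, on 20, 43, 56 and 48 UMIs. In each of these 4 classes every LPS library was above the library without LPS, although the sum over all cells was below it. The MS4A1 class at 4 h (0.07 [-0.06 to 0.20]) and the NCR1 class at 2 h (0.45 [-0.30 to 1.21]) were within counting error of no difference. Counted as cells with a UMI after thinning each cell to 2000 UMIs, HIF1A was found in 77.0% [73.3 to 80.4] of 574 CD14-class cells without LPS and in 91.1% [78.8 to 97.5] of 45 at 8 h. In the CD3E class the shares were 6.47% and 11.6%. The median depths of these cells before thinning were 12058 and 15308 UMIs in the CD14 class and 4202 and 5537 in the CD3E class, and 133, 21, 259 and 192 shallower cells were left out in the same order.

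EPAS1, the other alpha subunit, had at most 4 UMIs per library in the CD14 class, and was at 6.85, 6.30, 4.54 and 5.99 CPM in the CD3E class. ARNT, the partner subunit, was at 5.66, 4.87, 6.18 and 6.66 CPM over all cells. Of the genes that mark HIF for degradation, EGLN1 was at 70.2, 72.2, 79.1 and 74.6 CPM and VHL at 1.69, 1.90, 2.09 and 2.94 CPM over all cells, neither past the fold. EGLN3, itself known as an HIF target, was highest in the MS4A1 class at 49.5, 30.3, 37.7 and 44.5 CPM. It was lower past the fold there at 2 h (-0.69), but not on the TMM scale (-0.57).

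**Figure D4:**
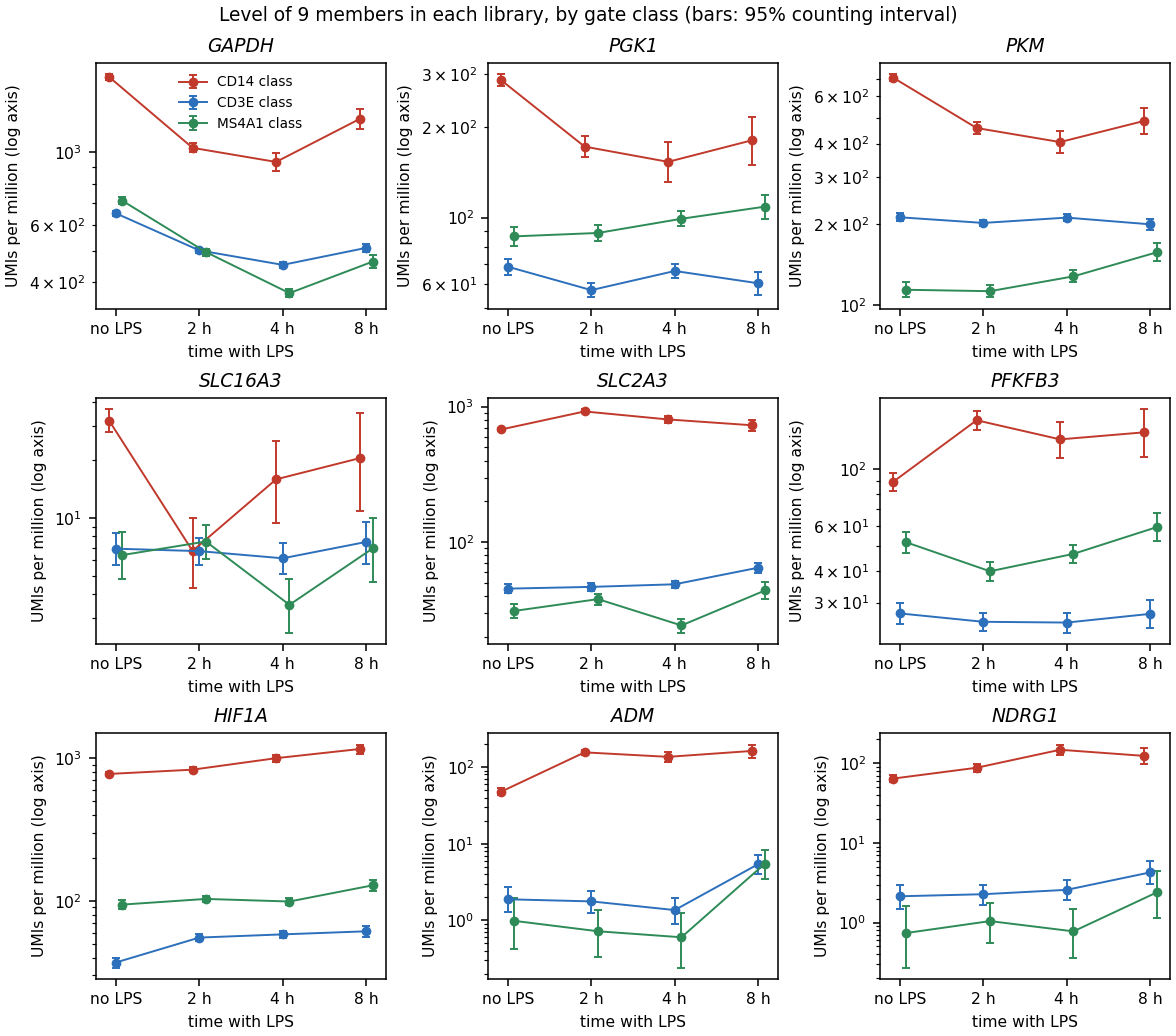
Level of 9 genes in CPM (log axis) in the 4 libraries, in the CD14, CD3E and MS4A1 classes, with 95% counting intervals. In the CD14 class GAPDH, PGK1, PKM and SLC16A3 lie below their level without LPS in all 3 LPS libraries, and SLC2A3, PFKFB3, HIF1A, ADM and NDRG1 lie above it.

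The hypoxia response genes were not all on the same side of their level without LPS. ADM, which encodes the vasodilator peptide adrenomedullin, was at 47.7 [42.6 to 53.2], 155 [143 to 169], 136 [115 to 159] and 162 [132 to 196] CPM in the CD14 class, higher past the fold at 2 h (1.68), 4 h (1.49) and 8 h (1.74). No LPS library overlapped the library without LPS in counting error, and the TMM values were 2.16, 1.59 and 1.65. Without the cells holding a UMI of CSF3R or CXCR1 the values were 1.54, 1.55 and 0.88, so that the 8 h level was 94.4 CPM. NDRG1 was at 64.3, 88.0, 148 [126 to 172] and 124 [98.3 to 155] CPM, past the fold at 4 h (1.19) and 8 h (0.94), and on the TMM scale also at 2 h (0.92). After thinning, ADM was found in 6.10% of CD14-class cells without LPS, and with LPS in 17.9%, 11.4% and 22.2% [11.2 to 37.1]. The CD3E-class shares were 0.356%, 0.281%, 0.217% and 1.10%.

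In the CD3E and MS4A1 classes ADM and NDRG1 transcripts were low and highest at 8 h. The NCR1 class had 0 UMIs of ADM in each library and 2, 5, 4 and 1 UMIs of NDRG1. ADM in the CD3E class was at 1.88, 1.77, 1.36 and 5.42 CPM and in the MS4A1 class at 0.985, 0.721, 0.602 and 5.51 CPM. NDRG1 was at 4.26 CPM in the CD3E class and 2.39 CPM in the MS4A1 class at 8 h, against 2.14 and 0.739 CPM without LPS. CXCL5, a leading transcript of the CD14 class, was at 446, 275, 166 and 960 CPM in the CD3E class, so its level there was also highest at 8 h. The part of free monocyte RNA in the ADM and NDRG1 values of the lymphocyte classes was not tested.

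VEGFA, the angiogenic growth factor, was at 75.6, 69.5, 35.2 and 42.6 CPM over all cells, lower past the fold at 4 h (-1.08) and 8 h (-0.81). Within the CD14, CD3E and MS4A1 classes it was not lower past the fold with all cells of each class kept. The CD14 class had 286, 319, 247 and 240 CPM and the CD3E class 4.90, 6.75, 7.12 and 9.57 CPM. The MS4A1 class had 11.4, 24.3, 15.0 and 18.2 CPM, higher past the fold at 2 h (1.03) and 8 h (0.63). When cells with a UMI of CSF3R or CXCR1 were left out, VEGFA in the CD14 class was lower past the fold at 4 h (-0.61). It was then at 183 CPM, against 280 CPM without LPS. DDIT4, an inhibitor of mTOR signalling, was at 89.1, 114, 141 and 89.6 CPM in the CD14 class, past the fold at 4 h (0.66). Without the cells holding a UMI of CSF3R or CXCR1 it was at 59.4 CPM at 4 h against 85.3 CPM (-0.51). The call was lost without those cells, and also with at least 2000 UMIs per cell (0.43). DDIT4 was in the MS4A1 class at 21.3, 37.8, 19.5 and 18.9 CPM, past the fold at 2 h (0.80). BNIP3L, a receptor for the removal of mitochondria, was past the fold at 4 h in the CD14 class (29.0, 29.1, 49.3 and 40.9 CPM). BNIP3L lost this call without the cells holding a UMI of CSF3R or CXCR1 (0.50) and without an upper limit on genes per cell (0.55). Its relative BNIP3 had at most 64 UMIs in a library over all cells. ANKRD37 had 52, 17, 23 and 9 UMIs over all cells and was lower past the fold at 2 h and 8 h, and P4HA1, a collagen prolyl hydroxylase, was within 1.5-fold (5.58, 4.14, 4.68 and 6.78 CPM).

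The smaller classes had fewer genes with enough UMIs. In the CD3E class, 0 of 33 genes were past the fold at 2 h, 2 were higher and 1 lower at 4 h, and 5 were higher at 8 h. Of the 9628, 9576 and 9199 genes tested there, 1.87%, 3.28% and 3.48% were higher and 2.23%, 3.65% and 1.63% lower. The median of the 33 genes was -0.06, -0.05 and -0.00. In the MS4A1 class, 3 of 29 were higher and 1 lower at 2 h, 1 of 29 higher and 4 lower at 4 h, and 1 of 27 higher and 1 lower at 8 h. There the background was 7.22%, 8.1% and 6.43% higher and 12%, 15.5% and 6.04% lower, and the medians of the genes were -0.03, -0.12 and 0.06. Neither class thus had a share of called genes far from its background in the direction of lower levels. In the direction of higher levels the CD3E class at 8 h lay above its background, with 5 of 33 genes against 3.48%. The 5 were SLC2A1, HIF1A, VEGFA, ADM and NDRG1. Without LPS their levels in the CD14 class were 2.90, 20.9, 58.5, 25.3 and 30.1 times those in the CD3E class. The part of free monocyte RNA in these CD3E-class values was not tested.

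In the NCR1 class 3 of 15 genes were higher at 2 h, 4 of 14 at 4 h and 4 of 12 at 8 h, and none was lower. With a gate of 2 UMIs the median of the genes at 2 h was -0.56 over 5 genes, in place of 0.04. The background was 12.3%, 11.6% and 9.85% of 1879, 1883 and 1310 genes higher and 6.33%, 7.06% and 8.4% lower. SLC2A3 was at 69.3 [43.4 to 105], 145, 168 and 152 CPM, past the fold at each time (1.05, 1.26 and 1.13). ENO1 was at 362, 493, 651 and 621 CPM, past the fold at 4 h (0.85) and 8 h (0.78), and TPI1 at 69.3, 62.4, 121 and 122 CPM. The enzymes summed to 2641, 2739, 2945 and 2813 CPM, so unlike in the CD14 class the sum with LPS was not below that without. The class held 38 to 99 cells in a library.

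The CSF3R class had 40045 UMIs without LPS and at most 8 of the 40 genes had enough UMIs. At 2 h 0 genes were higher and 3 lower, at 4 h 1 was higher and 3 lower and at 8 h 0 were higher and 3 lower. Of the 395, 415 and 210 genes tested, 25.6%, 31.3% and 17.1% were higher and 40.3%, 30.6% and 39.5% lower. On the TMM scale 4, 3 and 2 of the genes were higher and 0, 0 and 1 lower, and 53.9%, 60% and 27.6% of all genes were higher and 8.35%, 11.6% and 21.9% lower. The directions in this class thus turned with the scale, and its levels are given without one. SLC2A3 was at 1898, 1714, 2526 and 2520 CPM there and VEGFA at 1623, 2032, 1342 and 777 CPM, both above their CD14-class levels in every library. HIF1A was at 549, 629, 1134 and 651 CPM and ALDOA at 2272, 1019, 917 and 819 CPM. Cells with a UMI of CSF3R or CXCR1 made up 6.93%, 17.9%, 38.5% and 10.6% of the CD14 class. Without those cells SLC2A3 in the CD14 class was at 670, 900, 791 and 712 CPM, and the median of its enzymes was -0.65, -0.71 and -0.30.

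Related lists of genes are given beside the 40 genes. Over all cells, 1, 2 and 2 of 18 further glycolysis and pyruvate genes were lower at 2 h, 4 h and 8 h and 0, 0 and 1 higher. Of 7 pentose phosphate genes 1, 1 and 0 were lower and 0, 1 and 0 higher. Of 21 citric acid cycle genes 1, 2 and 1 were lower and none was higher. Of 30 further genes of the HIF pathway 4, 7 and 5 were lower and 2, 3 and 1 higher. Of all genes tested over all cells, 6.69%, 9.58% and 6.95% were lower and 3.42%, 5.12% and 4.95% higher. In the CD14 class the citric acid cycle list had a median of -0.57, -0.38 and -0.26 at 2, 4 and 8 h, so that at 4 h it was above the -0.80 of the glycolytic enzymes and below the -0.20 of all genes. The pentose phosphate list there had -0.91, -0.35 and 0.17.

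Within the CD14 class some of the further HIF genes were higher past the fold and others lower. BHLHE40, a repressor induced by hypoxia, was at 84.6, 201, 314 and 284 CPM in the CD14 class, and MXI1, an antagonist of MYC, at 93.4, 215, 311 and 140 CPM. The chemokine receptor gene CXCR4 was at 32.2, 61.9, 95.1 and 94.3 CPM. HMOX1, which encodes haem oxygenase, was at 176, 42.0, 158 and 149 CPM, lower past the fold at 2 h (-2.04). PLIN2, a coat protein of lipid droplets, was at 1430, 587, 906 and 743 CPM, and TXNIP, which restrains glucose uptake, at 149, 41.5, 59.9 and 92.7 CPM. Both were lower past the fold at each time on the CPM scale.

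Chromatin accessibility was compared among the LPS libraries first, because the library without LPS was far shallower. The counts on genes summed to 975012 without LPS, 30250143, 26837579 and 11957904 at 2, 4 and 8 h, over 3121, 4172, 3231 and 3163 barcodes. TPI1 and BNIP3 were listed in none of these tables. Counts were summed over barcodes of all cell types, and the rule that assigned fragments to genes is not given in the sources used here, so that a count need not lie at the promoter.

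At 4 h against 2 h, 0 of 38 genes were higher and 1 lower past the fold, against 0.924% and 3.61% of 13100 genes, and the median of the 38 was 0.03. At 8 h against 2 h, 1 of 34 was higher and 2 lower, against 3% and 13.8% of 11447 genes, with a median of 0.14. GAPDH was at 149, 156 and 163 CPM of accessibility at 2 h, 4 h and 8 h, HIF1A at 164, 175 and 173, PGK1 at 48.6, 51.7 and 40.5, and PKM at 169, 175 and 185. These genes thus stayed within 1.5-fold of their CPM at 2 h, with PGK1 at -0.26 [-0.46 to -0.05] at 8 h. The genes past the fold were ADM, NDRG1 and LDHB. ADM was at 21.2 [18.9 to 23.6], 12.7 [10.8 to 14.7] and 4.01 [2.57 to 5.97] CPM, lower by log2 -0.70 at 4 h and -2.15 at 8 h. NDRG1 was at 23.1, 20.3 and 13.7 CPM (-0.71 at 8 h), and LDHB was higher, at 30.1, 37.2 and 50.9 CPM (0.74 at 8 h). The RNA of ADM within the CD14 class was at 155, 136 and 162 CPM at the same times, while the CD14 class made up 3.12%, 1.58% and 1.93% of the cells, and whether the lower accessibility at ADM and NDRG1 follows the share of such cells was not tested.

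**Figure D5:**
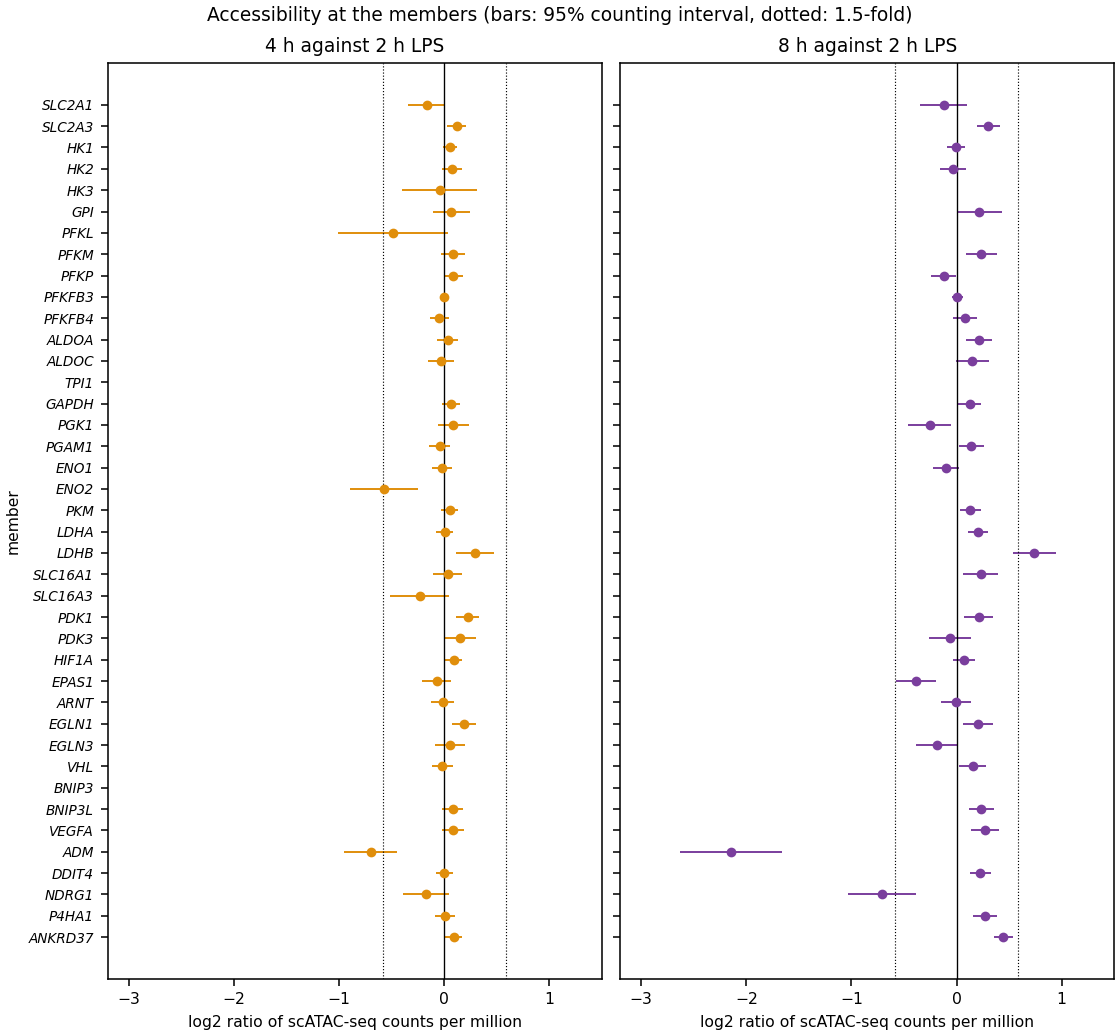
Log2 ratio of scATAC-seq CPM at 4 h and 8 h against 2 h of LPS for each of the 40 genes, with 95% counting intervals; dotted lines mark 1.5-fold. ADM lies left of the line at 4 h and 8 h and NDRG1 at 8 h, LDHB lies right of it at 8 h, and genes with no point were not listed in both libraries or had under 50 counts.

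Against the library without LPS, 34 genes could be compared at 2 h and 4 h and 33 at 8 h. At 2 h 1 was higher and 4 lower, at 4 h 1 was higher and 3 lower and at 8 h 1 was higher and 1 lower. The background at 2 h was 16.9% higher and 14.1% lower, at 4 h 15.3% and 12.7%, and at 8 h 9.74% and 13.4%. The higher gene each time was NDRG1, which had 3 counts without LPS, so that its log2 ratio of 2.56 at 2 h has an interval of 0.81 to 4.31. LDHB was at 73.8 [51.7 to 102] CPM of accessibility without LPS, on 72 counts, and at 30.1 at 2 h (-1.27). HK3, at 15.4 CPM without LPS on 15 counts, was at 6.71 and 6.48 CPM at 2 h and 4 h. SLC16A1, on 98 counts without LPS, was lower past the fold at 2 h (-0.75) and 4 h (-0.72). Its RNA over all cells was higher past the fold at both times (0.94 and 0.93). PFKM was lower past the fold in accessibility at 2 h (-0.59) and EPAS1 at 8 h (-0.78). ADM, ENO2, PFKL and SLC16A3 were not listed for the library without LPS, and no ratio is given for them.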

How the data were processed

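The tables the authors deposited for both assays hold unnormalized counts for every gene in every barcode. Those of scRNA-seq are UMIs, and the submitters' notes name Cell Ranger and the ARS-UCD1.2 build. Most scATAC-seq counts were even numbers, so their intervals were computed from 50% of each count. No genome sequence of the files' build was used here, so no positions or sequences are printed, and no column belonged to a sample of another series (0 columns).

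A cell needed between 200 and 3000 genes, 200 or more UMIs and less than 20% of UMIs from 13 mitochondrial genes. These are the limits of the study's methods, with the UMI limit, printed there as an upper one, read as a minimum. Of 8490, 10429, 7977 and 3860 barcodes they left more cells in each library than the study counts, and the reason was not tested. Classes needed at least 2 UMIs of CD14 or CSF3R, or at least 1 UMI of CD3E, MS4A1 or NCR1. Cells with genes of several lineages (480, 527, 363 and 278 in the order of the libraries), among them doublets, and cells with none entered no class, and no doublet caller was run. The CSF3R class excluded cells with 2 UMIs of CD14. Sums of UMIs per class and library were expressed as CPM, and 1 CPM was added before ratios were taken. Values at fixed class shares weight the CPM of each class by its UMI share without LPS. Intervals are exact Poisson or exact binomial 95% intervals, and those of log2 ratios come from the Poisson variance. Python 3.11.15, numpy 2.4.6, scipy 1.17.1 and pandas 2.3.3 were used. TMM factors came from edgeR 4.0.16 and size factors from DESeq2 1.42.0 as alternative scalings only, without testing. The ratio step was tested on simulated data.

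The genes named are those past 1.5-fold over all cells or in a class, the members of isoenzyme families and at most 5 genes of each further list per time. Not every gene this rule names is reported here. The 40 genes, the lists and the classes were chosen with earlier results of these data known. CXCL5, IL1B, IL7R and CXCR1 were named after their values were seen. Alternatives changed the limits on cells, the gates, the scaling, the pseudocount and the minimum of UMIs.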

Additional observations from a re-analysis of the deposited data

Results flagged for a closer look

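For 4 genes the cell classes lay past the fold in opposite directions against the library without LPS on the CPM scale. Each class has 1 library per time, so the differences between classes were not tested. ALDOA at 2 h was at 0.65 (log2) in the NCR1 class and -1.16 in the CSF3R class. TPI1 at 4 h was at 0.80 in the NCR1 class and -1.04 in the CD14 class. ENO1 at 4 h was at 0.85 in the NCR1 class, -0.65 in the CD14 class and -0.75 in the CSF3R class, and at 8 h at 0.78 in the NCR1 class and -0.97 in the CSF3R class. VEGFA at 8 h was at 0.84 in the CD3E class, 0.63 in the MS4A1 class and -1.06 in the CSF3R class. On the TMM scale only the TPI1 pair stayed past the fold both ways, at 0.85 in the NCR1 class and -0.94 in the CD14 class. There the CSF3R class had ALDOA at -0.12 at 2 h, ENO1 at 0.11 at 4 h and -0.48 at 8 h, and VEGFA at -0.58 at 8 h, and the CD14 class had ENO1 at -0.55 at 4 h. The NCR1 and CSF3R classes are the smallest, and the CSF3R class rests on 31 cells without LPS and 15 at 8 h.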

How the results depend on the processing

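No paired analysis was possible because each treatment had 1 library per assay, and for the same reason no replicate could be left out. Of the values answering a comparison under the alternatives, 215 kept their direction and stayed near the main value, 23 moved and 2 changed sign. Of those of single genes, 567 stayed, 124 moved and 13 changed sign. Over all cells the counts of higher and lower genes were 2 and 6, 1 and 10, then 0 and 9 at 2, 4 and 8 h. With a pseudocount of 10 CPM, 0 were higher and 2 lower at 2 h, 0 higher and 6 lower at 4 h, and 2 lower at 8 h, and for accessibility against 2 h there were 0 lower genes at 4 h and 1 at 8 h. With a pseudocount of 0.1 CPM 1 was higher at 8 h, as with at least 2000 UMIs per cell (1). Without an upper limit on genes per cell 2 were higher at 4 h, and 1 higher and 2 lower at 8 h. With cells of several lineages left out 1 was higher at 2 h and 5 lower at 8 h. With cells weighted equally 4 were lower at 4 h, and 2 higher and 1 lower at 8 h, when SLC2A3 was at 0.25, HK3 at 0.28, PFKFB4 at 0.15, VEGFA at 0.082 and NDRG1 at 0.049. With class shares fixed 3 were lower at 2 h, 4 higher and 5 lower at 4 h, and 3 higher and 1 lower at 8 h. SLC2A3 was then at 0.16, HIF1A at 0.29 and NDRG1 at 0.88 at 4 h, and SLC2A3 at 0.18, HK3 at 0.085, PFKFB4 at 0.094 and NDRG1 at 0.69 at 8 h. In the CD14 class at 2 h the median of the genes, -0.27, was 0.21 with TMM factors and 0.30 with DESeq2 size factors. In the NCR1 class at 2 h the median of 0.04 was -0.56 with a gate of 2 UMIs. Without cells holding a UMI of CSF3R or CXCR1, an alternative chosen after seeing the data, DDIT4 in the CD14 class at 4 h was at -0.51. The causes of these moves were not tested beyond what each setting changes. Few cells limit the precision of the CD14 class at 8 h (66 cells), the NCR1 class (38 at 8 h) and the CSF3R class (15 at 8 h), and few counts that of the accessibility library without LPS.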
